A study of Mus musculus with 2 samples.

Results

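The NRF2 antioxidant response genes are the transcription factor NRF2 (Nfe2l2), its repressor Keap1 and 8 genes that NRF2 is known to induce, Gclc, Gclm, Gsr, Txnrd1, Srxn1, Prdx1, Nqo1 and Hmox1. These 10 genes, of 18194 read on the arrays, were taken by name, and every probe set whose platform annotation includes one of them was used, which gave 24 probe sets of 45037. The series compared 1 culture transfected with silncMDSC, which targets a long non-coding RNA named lncMDSC in the labels and lnc-C/EBPβ in the study, with 1 culture transfected with control siRNA. Both were fresh bone marrow cells of C57BL/6 mice kept for 4 days in GM-CSF and IL6, conditions that yield myeloid-derived suppressor cells (MDSCs), so both groups share strain, cytokines and the transfection itself. With 1 array per group no difference has a replicate check and no test was made, so each value below describes these 2 arrays. No probe set was matched by name to the targeted RNA, and how far it was silenced was not analysed here. The labels do not give age, sex or whether marrow of several mice was pooled.

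NRF2 is a basic leucine zipper factor that is held at a low level in unstressed cells, because KEAP1 hands it to a CUL3 ubiquitin ligase for degradation. When oxidants or electrophiles modify cysteines of KEAP1, NRF2 is no longer degraded, enters the nucleus, pairs with small MAF proteins and binds antioxidant response elements near its target genes. The targets make glutathione, keep thioredoxin and peroxiredoxins reduced, and clear quinones and heme. MDSCs are known for making reactive oxygen species, so these genes act in a cell that lives with its own oxidants. Because NRF2 is controlled mainly through protein stability, the mRNA levels of Nfe2l2 and Keap1 need not follow its activity.

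To show where the element lies in the genes measured here, the core letters TGACNNNGC were searched on both strands of RefSeq promoter windows (build GRCm38.p6) that run from 250 bases before to 50 bases after a gene's start. These letters can hold TGACTCA, the AP-1 site, which was the case for 3.37% of all occurrences. Of the members, 7 matched the promoter table by symbol, with 9 windows in all because Txnrd1 has 3 starts, and Gclc, Gsr and Hmox1 did not match. The core was present in 5 of these 7 genes, against 14.0% of all 27025 genes with a window, and in 5 of the 9 windows, against 12.4% of all 32851. It was not among the letters of the Nqo1 and Keap1 windows. A match is a run of letters and not a shown binding site. The sequences below are shown because the 4 upstream matches can be read in their context, 5′ to 3′ on the gene's own strand, with the core in capitals. The core of Nfe2l2 reads on the gene's strand, and the cores of Txnrd1, Prdx1, Gclm and Srxn1 on the opposite one, where capitals read GCNNNGTCA. For Txnrd1 (+ strand, chr10:82858956-82859205), Prdx1 (+ strand, chr4:116685349-116685598) and Nfe2l2 (- strand, chr2:75704664-75704913) the 250 bases before the start are given, and for Gclm (+ strand, chr3:122245413-122245441) and Srxn1 (+ strand, chr2:152105542-152105570) the 29 bases around the core.
Txnrd1: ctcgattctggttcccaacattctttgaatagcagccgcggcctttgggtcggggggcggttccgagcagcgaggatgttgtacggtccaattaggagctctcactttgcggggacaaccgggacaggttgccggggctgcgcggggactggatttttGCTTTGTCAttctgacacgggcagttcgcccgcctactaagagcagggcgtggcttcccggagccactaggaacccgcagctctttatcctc
Prdx1: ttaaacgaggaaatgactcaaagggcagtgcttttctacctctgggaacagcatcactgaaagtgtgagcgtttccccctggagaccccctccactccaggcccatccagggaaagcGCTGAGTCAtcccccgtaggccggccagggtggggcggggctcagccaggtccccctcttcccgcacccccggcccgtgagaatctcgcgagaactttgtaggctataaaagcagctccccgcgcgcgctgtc
Nfe2l2: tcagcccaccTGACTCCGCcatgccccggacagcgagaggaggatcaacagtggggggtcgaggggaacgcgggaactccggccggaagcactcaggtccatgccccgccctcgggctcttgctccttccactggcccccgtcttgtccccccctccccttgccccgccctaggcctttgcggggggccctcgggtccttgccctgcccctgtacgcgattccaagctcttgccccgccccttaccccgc
Gclm: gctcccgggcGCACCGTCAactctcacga
Srxn1: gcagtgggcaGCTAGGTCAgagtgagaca
The core ended 84 bases before the start in Txnrd1, at the second of its 3 starts, 125 before it in Prdx1, 126 before it in Gclm and 232 before it in Nfe2l2, and it began 29 bases after the start in Srxn1. The Gclm start used here lies downstream of the start of the annotated gene, at position 122245487. That of Prdx1, TGACTCAGC as read on the opposite strand, was the 1 member core that also held the AP-1 letters.

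Of the 10 members, 9 had a lower value in the silncMDSC culture, by small amounts, and none reached a 1.5-fold difference. For 2 of these 9, Keap1 and Gsr, the sign was not settled, which leaves 7 that were lower under every setting in which they were read. Txnrd1, which encodes the cytosolic thioredoxin reductase, was the farthest apart at 1.26-fold lower, followed by the quinone reductase Nqo1 at 1.17-fold lower and the glutathione-making enzyme subunit Gclc at 1.16-fold lower. Only Gclm, the partner subunit of Gclc, was higher, by 1.04-fold. Differences are silncMDSC minus control siRNA on the log2(intensity + 1) scale, and where a gene had several probe sets the brightest one on average gave its value. On this scale 9 of the 10 members lay below 0, against 50.7% of the 11921 genes above the floor, where the floor is the median intensity of all probe sets of both arrays, 78.4, reached by the higher of a gene's 2 values. This count was 7 to 9 under the other settings, since Keap1 and Gsr, close to 0, changed sign under some of them and Srxn1 dropped out at a higher floor. All 10 members were above the floor. The members were chosen with earlier results of these data known, so their share below 0 describes the list and is not a test. Their median difference was -0.15, or 1.11-fold lower, against -0.002 over all genes, whose interquartile range was -0.13 to 0.11, and 6 members lay below that range. At a 1.5-fold threshold 0 members were lower, against 1.42% of all genes, and 0 were higher, against 0.948%. At 1.2-fold, 1 member was lower, against 10.5%, and 0 were higher, against 6.96%, so at this threshold the members' share of lower genes, 1 of 10, was near that of all genes.

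**Figure D1:**
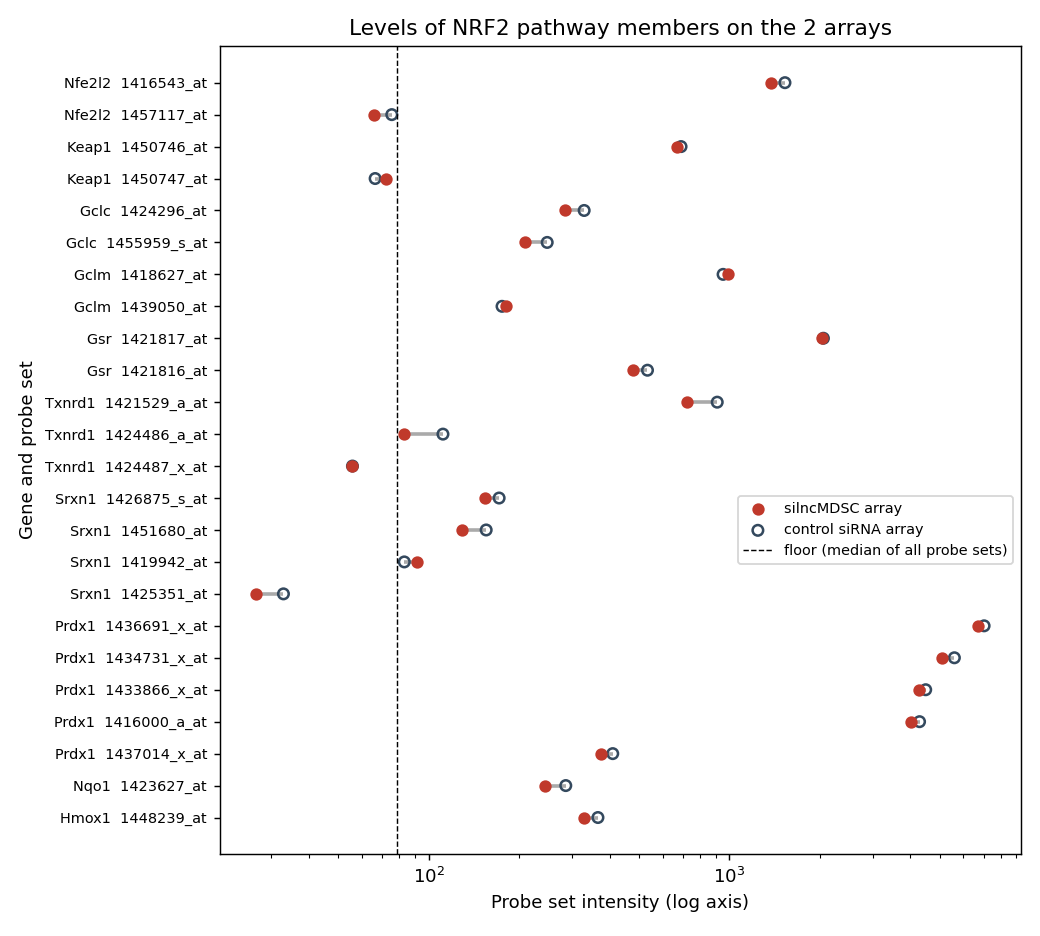
Intensity (x axis, log scale, arbitrary units) of each of the 24 probe sets on the silncMDSC array (filled red) and the control siRNA array (open blue), grouped by gene, with the floor of 78.4 as a dashed line. The 2 points of a probe set lie close together throughout, and the widest grey link is that of Txnrd1 probe set 1424486_a_at, with 83.0 in silncMDSC and 112 in control.

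Of the switch itself, Nfe2l2 lay slightly below 0 and Keap1 was close to level. Nfe2l2 had an intensity of 1378 in silncMDSC and 1530 in control on probe set 1416543_at, 1.11-fold lower (-0.15). Its other probe set, 1457117_at, had 66.0 in silncMDSC and 75.5 in control, both below the floor, and lay on the same side (-0.19). Keap1 had 670.2 in silncMDSC and 691 in control (-0.04), 1.03-fold lower, while its second probe set, 1450747_at, pointed the other way below the floor, with 72.2 in silncMDSC and 66.4 in control (0.12). The Keap1 value became 0.005 after quantile normalization and 0.04 with the mean of both probe sets, so no direction can be given for it. Nfe2l2 stayed below 0 under every setting run, from -0.17 to -0.12, and 2603 of the 11921 genes lay lower than it.

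The 2 subunits of glutamate-cysteine ligase, which makes the first and limiting step of glutathione synthesis, stood on opposite sides of 0. The catalytic subunit Gclc had 284 in silncMDSC and 329 in control on 1424296_at (-0.21), and 209 in silncMDSC and 248 in control on 1455959_s_at (-0.25). The modifier subunit Gclm, which raises the affinity of the enzyme for glutamate, had 992 in silncMDSC and 953 in control on 1418627_at (0.06), and 180.3 in silncMDSC and 175.5 in control on 1439050_at (0.04). Both probe sets of Gclc were lower and both of Gclm higher, and the gap between the 2 probe sets of a gene was 0.03 for Gclc and 0.02 for Gclm. Over the 4845 genes with at least 2 probe sets above the floor, that gap had a median of 0.09 and a 90th percentile of 0.29, and 71.8% had both on the same side of 0. Agreement of probe sets shows that a difference between these 2 RNA samples was read alike by separate probes, and says nothing of how far another pair of cultures would differ.

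Gsr, glutathione reductase, which returns oxidised glutathione to its reduced form with NADPH, had 2037 in silncMDSC and 2054 in control on 1421817_at (-0.01). Its second probe set, 1421816_at, was lower, with 479 in silncMDSC and 534 in control (-0.16). The brighter probe set of Gsr was at 0.01 to 0.02 with each array centred, with the loess trend removed and after quantile normalization, so its sign is unsettled.

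In the thioredoxin branch, Txnrd1 was the member farthest from 0. It had 725 in silncMDSC and 911 in control on 1421529_a_at (-0.33), with 776 of the 11921 genes lower than it. A second probe set above the floor, 1424486_a_at, had 83.0 in silncMDSC and 112 in control (-0.42). The third, 1424487_x_at, was dim and level, with 55.6 in silncMDSC and 55.9 in control. With the mean of all 3 probe sets the difference of Txnrd1 was -0.25, still the lowest of the members. Thioredoxin reductase 1 is a selenoprotein that reduces thioredoxin with NADPH, and its level also depends on selenium, which the array does not read.

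Srxn1 encodes sulfiredoxin, which repairs peroxiredoxins whose cysteine has been over-oxidised, and its probe sets disagreed. On 1426875_s_at it had 154 in silncMDSC and 172 in control (-0.16), and on 1451680_at 129 in silncMDSC and 155 in control (-0.27). Probe set 1419942_at was higher, with 91.2 in silncMDSC and 83.1 in control (0.13), close to the floor, and 1425351_at was below the floor with 26.7 in silncMDSC and 32.9 in control (-0.29). Among its 3 probe sets above the floor the differences spanned 0.40, wider than for any other member. The value of Srxn1 therefore rests on which probe set is read, and was -0.27 without probe sets that can cross-hybridise.

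Prdx1, a peroxiredoxin that removes hydrogen peroxide with electrons from thioredoxin, was read by 5 probe sets, all annotated also to Gm21399, a pseudogene, so the values cannot be credited to Prdx1 alone. The brightest, 1436691_x_at, had 6708 in silncMDSC and 7026 in control (-0.07). On the other 4 the differences ran from -0.13 to -0.08, so all 5 were lower and lay within 0.07 of each other, at intensities from 374 to 6708 in silncMDSC and from 409 to 7026 in control. The brightest of the 5 gave the smallest difference, -0.07, and the dimmest, 1437014_x_at, gave -0.13.

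**Figure D2:**
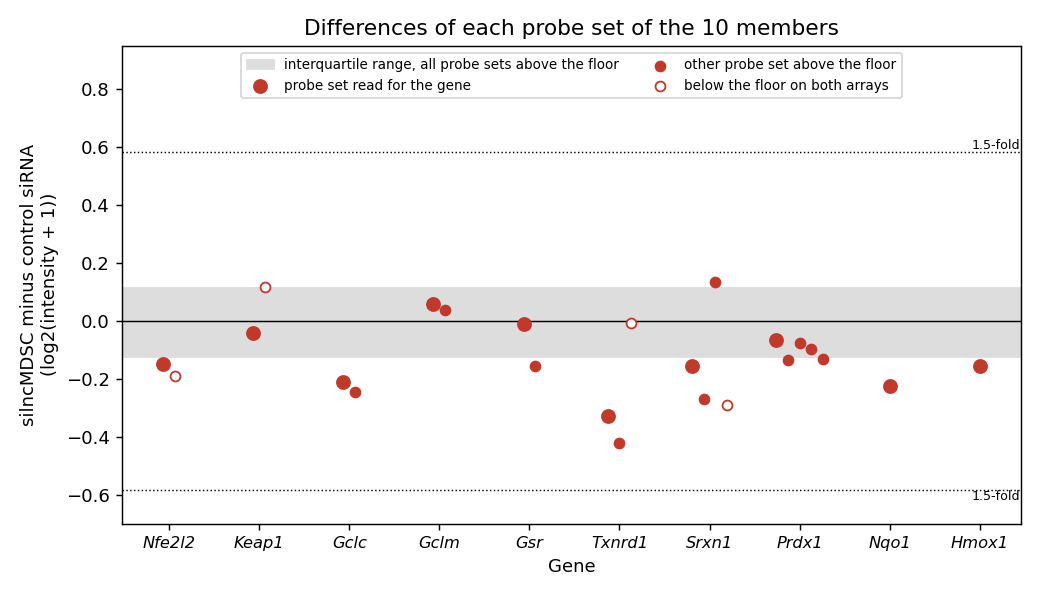
Each point is 1 probe set, with its silncMDSC minus control siRNA difference (y axis, log2(intensity + 1)) by gene (x axis). The grey band is the interquartile range of all 23193 probe sets above the floor, dotted lines mark 1.5-fold, open points lay under the floor in both cultures, and the filled points run from -0.42 for Txnrd1 to 0.13 for Srxn1.

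The quinone and heme enzymes were each read by a single probe set. Nqo1, which reduces quinones by 2 electrons and is a widely used marker of NRF2 activity, had 245 in silncMDSC and 286 in control (-0.22), with 1654 genes lower than it. Hmox1, which opens the heme ring to biliverdin, iron and carbon monoxide, had 328 in silncMDSC and 366 in control (-0.16), with 2498 genes lower. Hmox1 is also a target of the repressor BACH1 and is high in heme-clearing macrophages, so it answers to more than NRF2. Bach1 itself, chosen after its value was seen, had 1200 in silncMDSC and 1219 in control (-0.02), with its other probe set above the floor at 0.13.

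Over probe sets in place of genes the members also lay mostly below 0. Of the 24 probe sets, 20 were above the floor on both arrays and 4 below it on both. Of those 20, 17 were lower and 3 higher, against 49.9% lower over all probe sets above the floor. Their median was -0.14, against 0.0004 over all probe sets above the floor. Of the 20, 3 were at least 1.2-fold lower, 2 of Txnrd1 and 1 of Srxn1, against 10.3% of all. Probe sets of 1 gene read the same RNA and are not independent of each other.

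Other antioxidant genes lay on both sides of 0. Over 8 lists of redox genes, 110 genes beside the members were listed, 103 of these had a probe set of 1 symbol and 94 were above the floor. Listed genes without such a probe set were not read. Among those above the floor, 38 were lower, or 40.4%, against 50.7% of all genes above the floor, and 56 were higher. Their median was 0.06, against -0.002 over all genes, and so on the other side of 0 from the members' median of -0.15. Of these 94, 0 were at least 1.5-fold lower, against 1.42% of all genes, and 2 higher, against 0.948%, of which Cth passed the floor only through the silncMDSC array, where it is high. These lists hold genes of the wider antioxidant system, many of which NRF2 is not known to control in myeloid cells. The counts in the next paragraphs leave out the 10 members unless they are named, and the share of 50.7% lower over all genes stands beside each of them.

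**Figure D3:**
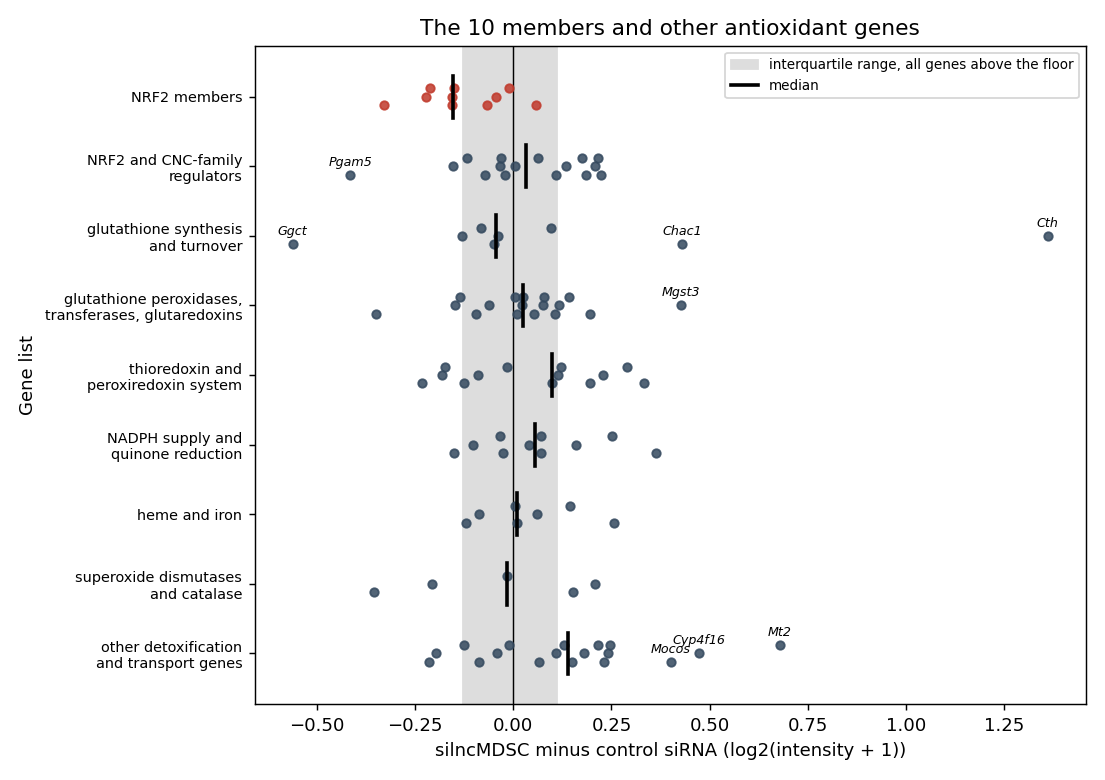
Each point is 1 gene above the floor, with its silncMDSC minus control siRNA difference (x axis, log2(intensity + 1)), for the 10 members (red, top row) and 8 lists of other antioxidant genes (blue). Black bars are medians, which lie at -0.15 for the members and between -0.04 and 0.14 for the lists, and the grey band is the interquartile range of all 11921 genes.

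Among regulators of NRF2 and its family, 7 of 16 were lower and 9 higher, with a median of 0.03. Pgam5, a mitochondrial phosphatase that binds KEAP1, had 273 in silncMDSC and 364 in control (-0.42). The blood-cell relative of NRF2, Nfe2, was at 0.22 and the ubiquitin ligase part Btrc at 0.21. Chosen after their values were seen, Sqstm1, the autophagy receptor p62 that draws KEAP1 away from NRF2 and is itself a target of it, had 716 in silncMDSC and 620 in control (0.21), and the ligase scaffold Cul3 was at -0.15 with its 5 probe sets from -0.40 to -0.10. The small MAF partner Mafg, also chosen after its value was seen, was at -0.07.

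Glutathione genes were spread widely around a median of -0.04, with 5 of 8 lower and 3 higher. Cth, which makes cysteine, the limiting building block of glutathione, had 84.2 in silncMDSC and 32.2 in control (1.36), but only the silncMDSC value was above the floor, so its size is uncertain. Ggct, which breaks down gamma-glutamyl amino acids in glutathione turnover, had 270 in silncMDSC and 399 in control (-0.56). Chac1, which degrades glutathione and is induced by ATF4, was at 0.43. The cystine importer Slc7a11, a gene that both NRF2 and ATF4 are known to induce and chosen here after its value was seen, had 210.5 in silncMDSC and 223 in control (-0.08), with its other probe set at -0.30. Of the glutathione peroxidases, transferases and glutaredoxins, 5 of 17 were lower and 12 higher, with a median of 0.03. Mgst3, a microsomal glutathione transferase, was at 0.43, the mitochondrial iron-sulfur glutaredoxin Glrx5 at -0.35, and Gpx4, which reduces lipid peroxides, at 0.20.

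In the thioredoxin and peroxiredoxin list, without the 3 members it holds, 6 of 13 were lower and 7 higher, with a median of 0.10. The peroxiredoxin of the endoplasmic reticulum, Prdx4, had 1047 in silncMDSC and 831 in control (0.33), so it stood on the other side of 0 from Prdx1 and Txnrd1. Txnip, which binds and inhibits thioredoxin and is induced by glucose, had 3348 in silncMDSC and 2740 in control (0.29). Of the genes that supply NADPH, 4 of 10 were lower and 6 higher, with a median of 0.05. Idh1, cytosolic isocitrate dehydrogenase, was at 0.36 and the one-carbon enzyme Mthfd2 at 0.25. Of the pentose phosphate enzymes, chosen after their values were seen, Pgd was at 0.04, Taldo1 at 0.07, Tkt at -0.03 and Pgls at 0.16. Pgd, Taldo1 and Tkt are known to be induced by NRF2. Other probe sets reached 0.14 for Pgd and 0.11 for Tkt, so the sign of Tkt depends on the probe set. G6pdx was listed but not read.

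The heme and iron list had 2 of 7 lower and 5 higher, with a median of 0.01. Biliverdin reductase B, Blvrb, was at 0.26 and the heme transporter Slc48a1 at 0.14. Of the superoxide dismutases and catalase, 3 of 5 were lower and 2 higher. Sod2, the mitochondrial enzyme that NF-κB induces, had 2862 in silncMDSC and 3661 in control (-0.35), with its 3 probe sets from -0.61 to -0.35, while catalase, Cat, was at 0.21 and the secreted Sod3 at -0.21. The last list, of other detoxification and transport genes associated with NRF2, had the highest median, 0.14, with 6 of 18 lower and 12 higher. It thus lay on the other side of 0 from the members, whose median was -0.15. The metallothionein Mt2, which binds zinc and copper, had 1975 in silncMDSC and 1233 in control (0.68) and was 1 of the 2 genes of these lists at least 1.5-fold higher, beside Cth. Cyp4f16 (0.47) and the molybdenum cofactor sulfurase Mocos (0.40) were also higher. Of further genes that NRF2 is known to induce, chosen after their values were seen, Osgin1 (-0.20) and the glutathione conjugate exporter Abcc1 (-0.21) were below 0, while the carbonyl reductases Cbr1 (0.15) and Cbr3 (0.21), the epoxide hydrolase Ephx1 (0.24) and the aldo-keto reductase Akr1b8 (0.18) were above it.

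**Figure D4:**
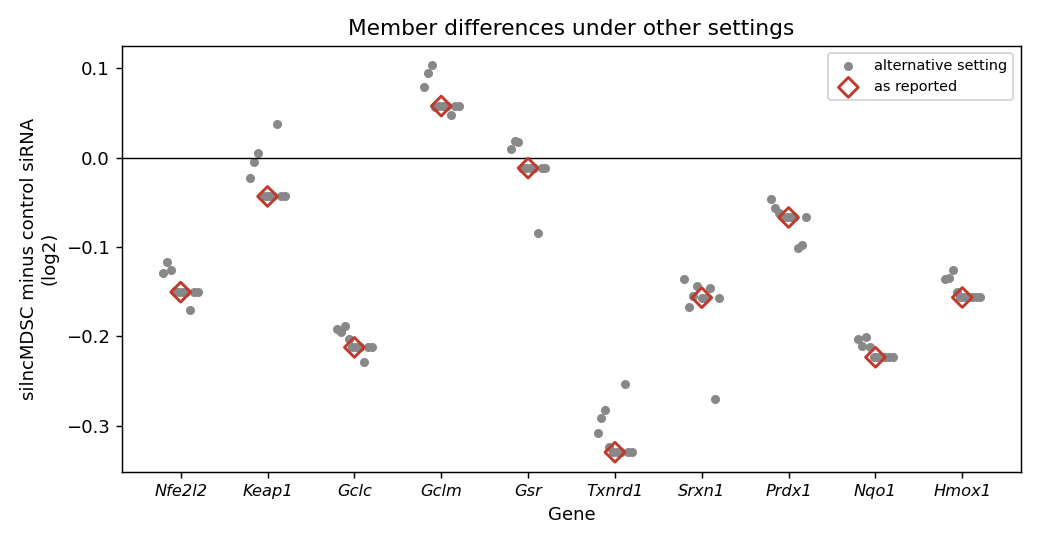
silncMDSC minus control siRNA difference (y axis, log2) of each member as reported (red diamond) and under each alternative setting (grey points, 9 for Srxn1 and 10 for each other gene). Values for Keap1 and Gsr cross 0, while those for the other 8 genes stay on 1 side, with Gclm between 0.05 and 0.10 and Txnrd1 between -0.33 and -0.25.

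The arrays as a whole were closely matched in level, with median intensities of 79.0 in silncMDSC and 77.9 in control, yet offsets of the size seen for the members are also near those of the technical controls. Hybridisation spikes stood higher on the silncMDSC array by a median of 0.11 (18 probe sets) and poly-A spikes by 0.16 (27 probe sets), the opposite side from the members. The 3′ minus 5′ difference, a sign of RNA integrity, was larger in silncMDSC by 0.08 for beta-actin and by 0.02 for Gapdh. The part of these in the members' values was not tested.

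Myeloid markers were plainly present on both arrays, but markers of several cell types also differed between the arrays. The neutrophil proteins S100a8 and S100a9 were level at the top of the scale (-0.01 each), and Itgam, which encodes CD11b, had 2040 in silncMDSC and 2144 in control (-0.07). Of all genes above the floor, 50.7% were lower, the share to set beside each marker count here. Macrophage markers were lower on the silncMDSC array in 10 of 11 above the floor, with summed intensities of 16176 in silncMDSC and 18883 in control over the 12 read and Cd163 below the floor. Of these 11, 5 were at least 1.5-fold lower, against 1.42% of all genes above the floor. The 5 were Mrc1 (1.91-fold), Msr1 (1.88-fold), Apoe (1.84-fold), Maf (1.81-fold) and Mertk (1.61-fold). The 4 probe sets of Msr1 above the floor ran from -0.91 to -0.40 and the 5 of Maf from -0.85 to -0.41. Not all of these reached 1.5-fold. Adgre1, which encodes F4/80, was level (-0.001) and Csf1r was at 0.09, both chosen after their values were seen. Monocyte markers lay on both sides of 0, with 4 of 6 lower and sums of 6578 in silncMDSC and 6804 in control. Vcan was 2.01-fold lower and Fcgr4 was at -0.15, while F13a1 (-0.005) and Itgam (-0.07) were near level. Ccr2 (0.34) and Cx3cr1 (0.37) were higher. Neutrophil markers were lower in 8 of 10, against 50.7% of all genes above the floor, with sums of 63457 in silncMDSC and 65835 in control. This count includes S100a8 and S100a9, which were level. Cxcr2, the farthest from 0 in this list, was higher (0.44). Dendritic cell markers were higher in 9 of 10, with sums of 22585 in silncMDSC and 16688 in control. Of them, 4 were at least 1.5-fold higher (H2-Eb1, Ciita, Itgax and Ccr7), against 0.948% of all genes above the floor. The 3 probe sets of Ciita above the floor ran from 0.09 to 0.70. Eosinophil markers were higher in 4 of 4, with sums of 4381 in silncMDSC and 3156 in control and Ccr3 and Il5ra below the floor. Platelet markers were lower in 3 of 5, with sums of 7239 in silncMDSC and 9854 in control that were mostly Pf4 and Ppbp. Ppbp was 1.53-fold lower and Pf4 was at -0.43. Gp1bb was level (-0.004), and Itga2b (0.15) and Gp9 (0.13) were higher. Erythroid cells were at the edge of detection, with Hba-a1, Alas2, Klf1 and Slc4a1 below the floor on both arrays. Macrophages are a known source of Hmox1, and in bulk RNA fewer cells of a type cannot be told apart from less of a transcript per cell. The part of these markers in the members' values was not tested.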

How the data were processed

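Total RNA of each culture (6 µg per the labels) was labelled with biotin and, according to the methods, hybridised to an Affymetrix GeneChip mouse genome array, which reads each transcript through groups of oligonucleotides called probe sets. The authors deposited intensities of probe sets on a linear scale, with a column for each array. The processing notes name RMA, whose usual output is log2, with no version, and how the values became linear, with a lowest value of 1, is not stated in what was read here. The depth of an array cannot be counted, and the number of arrays limits the precision.

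The 64 Affymetrix control probe sets were set apart. Symbols came from the platform annotation, in which 34945 probe sets had 1 symbol, and 34741 of these were found by Entrez identifier in a RefSeq table of GRCm38.p6 with no symbol to update. Genes were read from probe sets with 1 symbol, except Prdx1, which has none. The log2 difference used a pseudocount of 1. The methods name limma with an adjusted p, which needs replicates, so no test was run. Counts past 1.5-fold and medians were set beside those over all genes above the floor. Named genes were all members, up to 3 genes with the largest differences of each list and any at least 1.5-fold apart, and others are marked in the text as chosen after their values were seen. Members and lists were chosen with earlier results of these data known. The promoter windows were read 5′ to 3′ on the gene's strand, since 1668 of 1668 overlapping windows of opposite strands were reverse complements. Alternatives were median centring, loess (span 0.3), quantile normalization, a pseudocount of 16, other floors, other probe set rules and other thresholds. The calculation was run on data with known differences, all larger than those of the members. That run checked the arithmetic only and does not bear on differences as small as theirs. Python 3.11.15, pandas 2.3.3 and statsmodels 0.14.6 were used.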

Additional observations from a re-analysis of the deposited data

How the results depend on the processing

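The median of the members ran from -0.16 to -0.13 over its 11 alternatives and stayed below 0, and the number of members below 0 ran from 7 to 9. Over these alternatives the median of all genes stayed between -0.02 and 0.02 and 45.6% to 55.0% of them lay below 0, while the members' median less that of all genes ran from -0.16 to -0.13. The count of members at least 1.5-fold apart was 0 under every alternative but a threshold of 1.2-fold, which gave 1, Txnrd1, and by construction admits smaller differences. Gsr changed sign with median centring (0.01), loess (0.02) and quantile normalization (0.02), and Keap1 with quantile normalization (0.005) and the mean of probe sets (0.04). Srxn1 moved to -0.27 without probe sets ending in _x_at or _s_at, since another probe set is then read, and was under the floor at the 75th percentile. For the regulator, heme and iron, superoxide dismutase and thioredoxin lists, medians were run with any members they hold counted. These ran from -0.04 to 0.01 in the main calculation and changed sign under 1 to 4 alternatives each. The medians given above for the regulator, heme and iron, and thioredoxin lists leave the members out and were not run under the alternatives. No paired analysis was possible because each group has 1 array. Without replicates no alternative shows how far another pair of cultures would differ.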
